A study of Mus musculus with 8 samples.

Results

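mmu-miR-664-3p, mmu-miR-339-5p, mmu-miR-32-3p and mmu-miR-1943-5p, written without the species prefix from here on, are 4 of 1978 mature miRNAs counted in CD8+ T cells of mouse spleen. They were chosen by their counts in the MP subset, as miRNAs that separated mCre from WT most there. Other miRNAs had differences of larger size. In mCre MP, miR-664-3p (22.2 and 37.4 CPM, counts scaled to a common library total, in the 2 libraries), miR-339-5p (10.1 and 14.0 CPM) and miR-32-3p (0 in both) were lower than in WT MP, and miR-1943-5p (114 and 43.2 CPM) was higher. Each stands in a single row of the count table with whole-number counts. Since the MP values made the choice, they are given as a description and carry no test. The libraries of the TN subset took no part in it.

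Small RNA was sequenced from sorted cells in 8 libraries, 2 in each of 4 groups: WT TN, mCre TN, WT MP and mCre MP. Sorting after bead enrichment used CD8, CD4, CD44 and CD122, and short inserts were size selected. TN usually stands for true naive cells. MP usually stands for memory-phenotype cells. The design text writes VM, which usually means virtual memory, a subset that carries memory markers without having met foreign antigen. The series title joins miR-29 and Cre, a recombinase that deletes marked sequences. The labels name neither the allele, the promoter that drives Cre, the strain nor the age of each animal, and the protocol covers adult and neonatal spleens together. Whether replicates are separate mice is not stated, so the tests measure only the spread among these libraries, which may be technical.

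A miRNA is cut from a hairpin in a longer transcript, and the hairpin's arms, named 5p and 3p, can each give a mature strand. The strand held by an Argonaute protein guides it to messenger RNAs mainly through the seed, bases 2 to 8, and the other strand is usually degraded. CD8+ T cells reset many of their miRNAs when they leave the naive state. The 4 mature sequences (RefSeq, GRCm38.p6) are shown with the seed in capitals because the seed decides which targets a strand can share with another.
miR-664-3p: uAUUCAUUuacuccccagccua
miR-339-5p: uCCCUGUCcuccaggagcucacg
miR-32-3p: cAAUUUAGugugugugauauu
miR-1943-5p: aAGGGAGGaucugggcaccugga
No pair among the 4 shares a seed. The table holds no other miRNA with the seed of miR-664-3p, miR-339-5p or miR-32-3p. It holds 3 others with that of miR-1943-5p, namely miR-149-3p, miR-7016-5p and miR-6967-5p, none of which passed the filter on low counts and none of which had over 2 counts in any group. The GC content of the 4 was 40.9% for miR-664-3p, 65.2% for miR-339-5p, 28.6% for miR-32-3p and 60.9% for miR-1943-5p, against a median of 47.8% over the 308 tested miRNAs with a sequence. Among those 308, the median GC content was 45.5% for the 111 that were lower and 52.4% for the 87 that were higher in mCre MP without overlap, and Spearman's rho between GC content and the log2 difference in MP was 0.266, a description across miRNAs of the same libraries.

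The opposite arms of the same hairpins are shown in the same way, since they come from the same transcripts and the choice did not use them.
miR-664-5p: cUGGCUGGggaaaaugacugg
miR-339-3p: uGAGCGCCucggcgacagagccg
miR-32-5p: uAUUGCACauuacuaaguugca
miR-1943-3p: cAGGUGCCagcuccucccuuc
Only miR-32-5p among these shares its seed with other miRNAs of the table, the miR-25 and miR-92 family described further on.

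All 4 hairpins lie on the strand of a protein-coding gene, inside an intron of it (GENCODE M21, GRCm38, the build mm10 that the submitters' notes name). Mir664 lies on chromosome 1 at 185242975 to 185243043 on the plus strand, in an intron of Rab3gap2, and overlaps the exon of the small nucleolar RNA gene Snora36b (185242907 to 185243038). Mir339 lies on chromosome 5 at 139369650 to 139369745 on the minus strand, in 3110082I17Rik. Mir32 lies on chromosome 4 at 56895229 to 56895298 on the minus strand, in Tmem245. Mir1943 lies on chromosome 15 at 79375228 to 79375300 on the minus strand, in Tmem184b. Such a position is common: 95 of the 229 hairpins that give the tested miRNAs (41.5%) lie in an intron of a protein-coding gene of the same strand. The Mir664 hairpin is shown with miR-664-3p in capitals, because its arms went opposite ways between the genotypes in MP.
Mir664 hairpin: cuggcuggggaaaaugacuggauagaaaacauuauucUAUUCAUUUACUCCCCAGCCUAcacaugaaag

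Some features of whole libraries touch every value that follows. Totals ran from 1936597 to 5230976 counts. The smallest were in the library labelled WT TN replicate 2 (1936597) and in mCre MP replicate 1 (2140365). Distinct miRNAs with counts numbered 416 and 514 in the mCre MP libraries and 478 in the library labelled WT TN replicate 2. The other 5 libraries had 532 to 648. miR-29 took 0.369% and 1.14% of the counts in the WT MP libraries and 0.0787% and 0.133% in the mCre MP libraries. In TN replicate 1 it took 0.355% in WT and 0.170% in mCre, but in replicate 2 the library labelled WT held 0.0774% and the library labelled mCre 1.59%, the reverse of the order in the other 3 pairs, so the TN levels are given by replicate, and the TN fits take the labels as deposited. The let-7 family took 63.95% and 60.04% of the counts in mCre MP and 69.4% in the library labelled WT TN replicate 2, against 43.4% to 52.0% in the other 5 libraries. Lymphocyte miRNAs were abundant in all libraries, with 62700 to 195000 CPM summed over the list of 6. The sum was 170000 to 183000 CPM in WT MP and 102000 to 161000 CPM in mCre MP. Of the 6, 3 were lower in mCre MP without overlap and 3 overlapped, beside 37.4% lower among all 382 tested miRNAs. Levels are CPM after TMM scaling, which sets libraries on a common scale by the bulk of their miRNAs, and intervals around single values are exact 95% Poisson intervals that cover counting error only.

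In MP, the mCre and WT values did not overlap for any of the 4, which were chosen on these values. Their counting intervals also lay apart, except for miR-32-3p. There the interval of WT MP replicate 2 (0.941 to 4.3 CPM) reached below the upper limits of both mCre MP libraries (1.95 and 1.44 CPM). miR-664-3p stood at 120 CPM (109 to 132) and 122 CPM (111 to 134) in WT MP replicates 1 and 2, and at 22.2 (16 to 30.1) and 37.4 (30.3 to 45.7) in mCre MP replicates 1 and 2. Group means were 121 ± 1.51 and 29.8 ± 10.7 CPM (SD, n = 2 each), a fitted difference of -2.02 ± 0.64 on the log2 scale (SE), or 4.06-fold lower in mCre. The WT values nearly coincided and the mCre values lay below both.

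miR-339-5p was at 103 CPM (93.1 to 114) and 57.0 CPM (49.5 to 65.2) in WT MP, and at 10.1 (6.06 to 15.7) and 14.0 (9.82 to 19.4) in mCre MP. The mCre libraries were close to each other and held 19 and 36 counts, and the spread lay among the WT libraries. The fitted difference was -2.73 ± 0.83 on the log2 scale (SE), 6.62-fold lower in mCre.

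miR-32-3p was the scarcest of the 4. It had 21 and 8 counts in WT MP (5.67 and 2.18 CPM) and 0 in both mCre MP libraries. The exact 95% intervals of these counts of 0 end at 1.95 and 1.44 CPM. A floor of 3 counts in each library was set for them, at 1.59 and 1.17 CPM. Against that floor it was at least 2.92-fold lower in mCre MP, from 29 WT counts. This bound was 4.21-fold with WT MP replicate 1 alone and 1.62-fold with replicate 2 alone. The interval of the second WT library, 0.941 to 4.30 CPM, reaches below both floors. The mCre to WT ratio was 0 in both replicates. Its exact 95% interval from counting alone was 0 to 0.376 in replicate 1 and 0 to 0.837 in replicate 2. The latter limit is near 1, and these values made the choice, so the ratios are a description.

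miR-1943-5p went the other way, at 13.8 CPM (10.3 to 18.1) and 13.6 CPM (10.1 to 18.0) in WT MP and 114 (99.7 to 131) and 43.2 (35.6 to 52.1) in mCre MP. Both mCre values lay above both WT values but differed from each other by more than their counting intervals. The fitted difference was 2.52 ± 0.67 on the log2 scale (SE), 5.73-fold higher in mCre, and it was 1.83 without mCre MP replicate 1 and 3.25 without mCre MP replicate 2.

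Separation of this kind was common in MP. Of 382 tested miRNAs, 143 (37.4%) were lower and 104 (27.2%) higher in mCre MP without overlap, 64.7% in all, so nothing is read from the absence of overlap among the 4. The median of the absolute log2 difference was 0.961 over all tested miRNAs, and miR-664-3p, miR-339-5p and miR-1943-5p lay past 2. Many other tested miRNAs did so in either direction, among them miR-296-5p (-3.51) and miR-7658-5p (3.13), so nothing is read from this size. For miR-32-3p, with 0 counts in mCre MP, only lower bounds are available. Against the floor of 3 counts in each library the bound was 2.92-fold. The exact 95% limit from the summed counts of each group was 4.46-fold, which covers counting error only. The places of the 4 in the order of this fit, 2 to 5, restate the choice and test nothing. The miRNA just before them, let-7i-3p, was at 8.38 and 7.63 CPM in WT MP and at 0 and 0.390 in mCre MP. The next after them, let-7c-5p, was at 10200 and 11600 CPM in WT MP and 50500 and 31900 in mCre MP. edgeR's quasi-likelihood test called 0 of the 382 (0%) at an adjusted p under 0.05, while 41 had an unadjusted p below 0.05; DESeq2 also called 0. edgeR called 38 with the MP libraries fitted alone and 39 with TN replicate 2 left out in both genotypes, an alternative added after the data were seen.

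**Figure D1:**
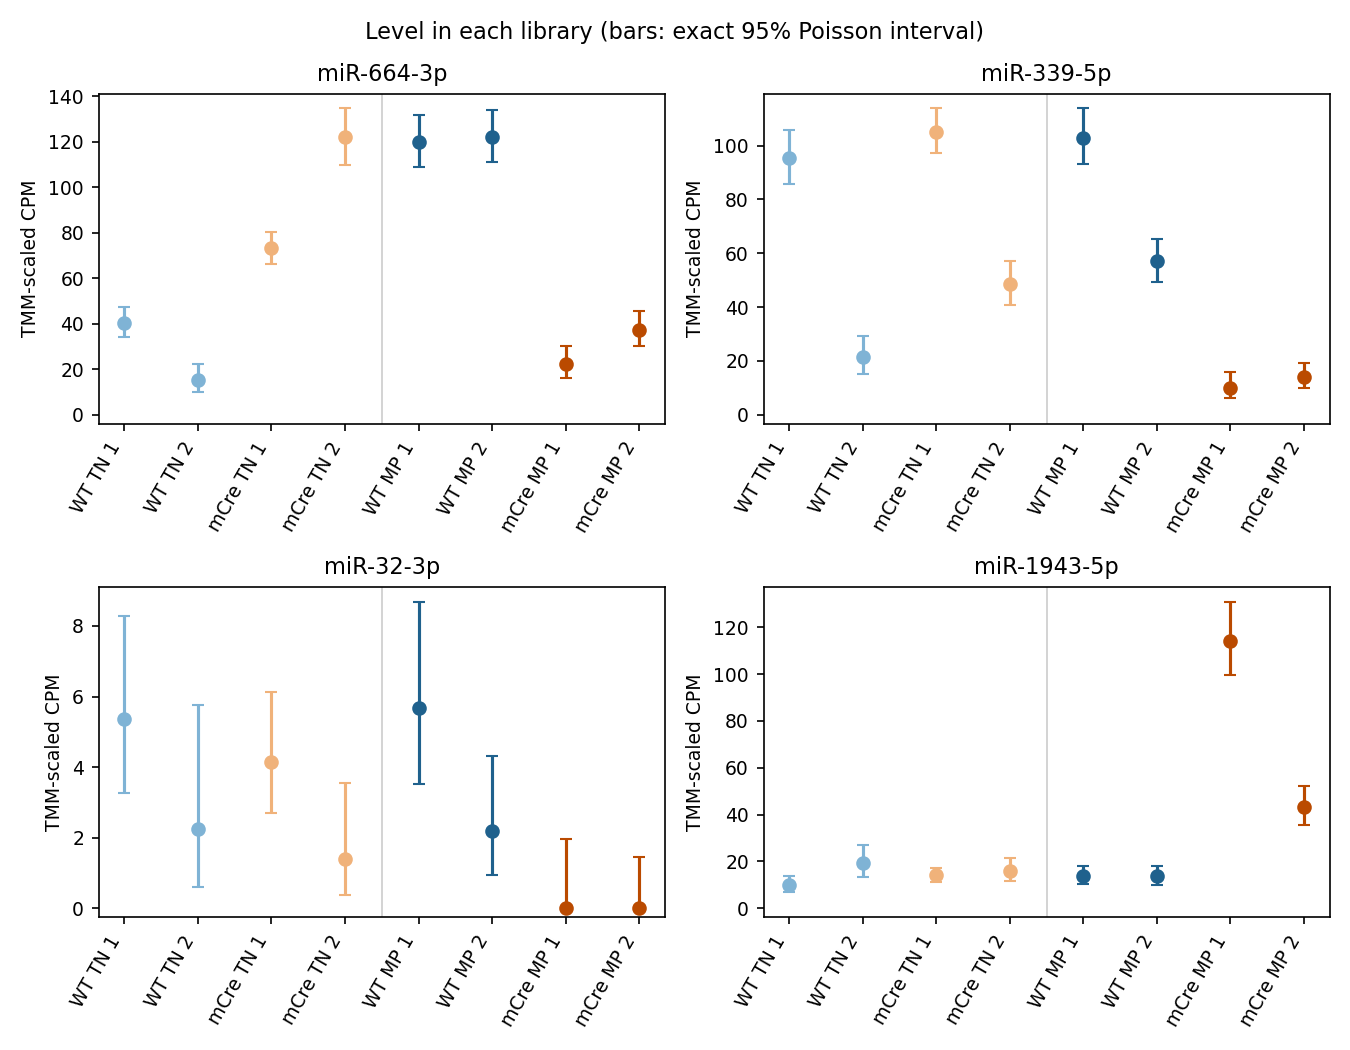
TMM-scaled CPM of miR-664-3p, miR-339-5p, miR-32-3p and miR-1943-5p in each of the 8 libraries, named by genotype, subset and replicate, with exact 95% Poisson intervals as bars. In MP, to the right of the vertical line, the mCre points lie below the WT points in the first 3 panels and above them for miR-1943-5p (114 and 43.2 against 13.8 and 13.6 CPM), while the TN points spread differently.

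The TN libraries show whether the same genotype difference appears where it was not selected. It did not pass the test for any of the 4. miR-664-3p stood at 40.4 CPM (34.2 to 47.4) in WT and 73.1 (66.4 to 80.3) in mCre for replicate 1, a ratio of 1.81 (exact 95% interval from counting alone, 1.5 to 2.19). In replicate 2 it was at 15.2 CPM (10 to 22.1) in the library labelled WT and 122 (110 to 135) in the library labelled mCre, a ratio of 8.02 (5.42 to 12.3). As labelled, both mCre TN values thus lay above both WT TN values, opposite to MP. This rests on the replicate 2 labels: with them exchanged, the TN groups would overlap. The fit on the TN libraries alone gave 1.66 ± 0.82 in log2 units (SE; edgeR adjusted p = 0.986). Among the 382 miRNAs, 22.5% lacked overlap in TN (15.7% higher and 6.81% lower in mCre), and 24 (6.28%) joined this to being lower without overlap in mCre MP, miR-664-3p among them.

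miR-339-5p was at 95.6 CPM in WT and 105 in mCre for TN replicate 1, a ratio of 1.10 (0.965 to 1.26) that counting error alone covers. In replicate 2 it was at 21.4 CPM in the library labelled WT and 48.5 in the library labelled mCre, a ratio of 2.27 (1.57 to 3.34). The groups overlapped, and the difference was 0.26 ± 0.94 in log2 units (SE; edgeR adjusted p = 0.986). Its sign turned without WT TN replicate 2 (-0.42) and without mCre TN replicate 1 (-0.27).

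miR-32-3p had 20 and 25 counts in WT and mCre TN replicate 1 (5.36 and 4.15 CPM) and 4 counts in each library of replicate 2 (2.25 and 1.39 CPM). Replicate ratios of mCre to WT were 0.776 (0.414 to 1.47) and 0.615 (0.115 to 3.30), neither distinguishable from 1 at this depth. The fitted difference was -0.59 ± 1.08 in log2 units (SE; edgeR adjusted p = 0.986), and 0.34 without WT TN replicate 1.

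miR-1943-5p was at 9.91 and 14.0 CPM in WT and mCre TN replicate 1, and at 19.2 and 15.9 CPM in replicate 2. The ratios, 1.41 (0.946 to 2.13) and 0.833 (0.523 to 1.34), fell on either side of 1. The fitted difference was -0.14 ± 0.88 in log2 units (SE; edgeR adjusted p = 0.986), and its sign depended on the scaling (0.10 with total counts), on the filter, on the libraries fitted and on which library was left out. Across all 382 miRNAs the TN fit of edgeR called 0 (0%), while 3 had an unadjusted p below 0.05; DESeq2 also called 0. On counts simulated for this comparison with 382 tested, 16.3% of 4-fold and 87.4% of 16-fold changes were recovered. There 200 miRNAs were changed at once, with a spread taken from all 4 groups. Recovery with only a few changed miRNAs was not simulated. An exact permutation test of 2 libraries against 2 could not go below a two-sided p of 0.333.

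**Figure D2:**
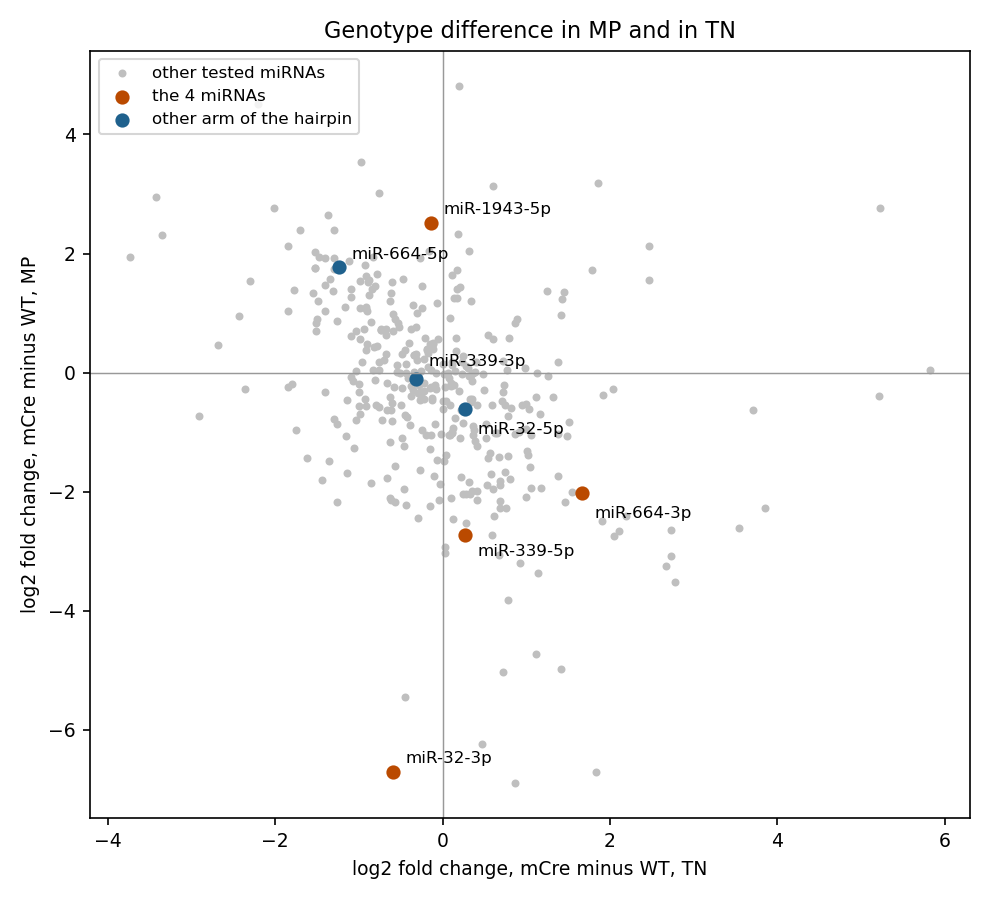
Log2 fold change of mCre minus WT in TN (horizontal axis) and in MP (vertical axis) for the 382 tested miRNAs, with the 4 chosen miRNAs and the tested opposite arms of their hairpins marked. miR-664-3p lies at 1.66 in TN and -2.02 in MP, while miR-339-5p, miR-32-3p and miR-1943-5p lie at 0.26, -0.59 and -0.14 in TN.

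The order of the libraries differed among the 4. miR-664-3p was lowest in the library labelled WT TN replicate 2 (15.2 CPM), followed by mCre MP replicates 1 and 2 (22.2 and 37.4) and WT TN replicate 1 (40.4). Neighbours in this order overlap in their intervals for the first 2 and for the last 2 of these libraries. mCre TN replicate 1 came next at 73.1, and the remaining 3 libraries, both WT MP and the library labelled mCre TN replicate 2, sat together at 120 to 122 CPM. For miR-339-5p the lowest were the mCre MP libraries (10.1 and 14.0 CPM) and the library labelled WT TN replicate 2 (21.4), with the other 5 at 48.5 to 105 CPM. In both miRNAs the 3 libraries with the least miR-29 and the most let-7 were thus the 3 lowest, as they were for 87 of the 382 tested (22.8%). The part of library composition in this order was not tested.

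miR-1943-5p kept to a narrow band of 9.91 to 19.2 CPM in all TN and WT MP libraries and was above it in both mCre MP libraries, an order that 43 of 382 tested miRNAs (11.3%) shared. The library labelled WT TN replicate 2, at 19.2 CPM (13.3 to 26.8), was the next highest, and its interval overlaps that of mCre TN replicate 2 (11.7 to 21.3). The mCre MP libraries and this one, with the least miR-29 and the most let-7, were thus above the other 5. The same held for 52 of 382 tested miRNAs (13.6%). miR-32-3p was between 1.39 and 5.67 CPM in the 6 libraries where it was found, and the intervals of the highest (3.51 to 8.67) and the lowest (0.378 to 3.55) still overlap. Both mCre MP libraries lay below all the others for miR-339-5p and miR-32-3p, as for 20 of 382 miRNAs (5.24%).

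**Figure D3:**
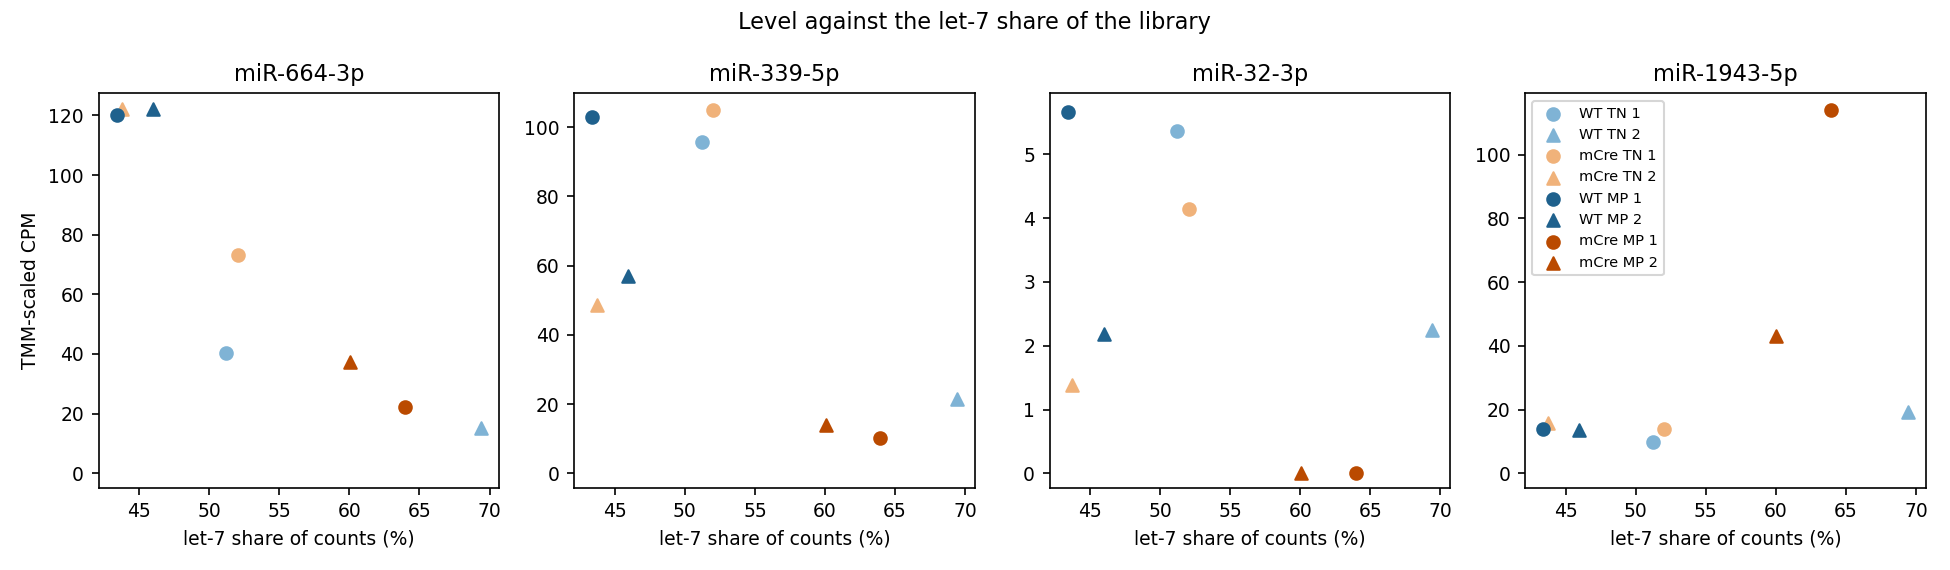
TMM-scaled CPM of each of the 4 miRNAs (vertical axes) against the share of let-7 in the library's counts (horizontal axes), 1 point per library, with circles for replicate 1 and triangles for replicate 2. The 3 libraries with 60.04% to 69.4% let-7 are the lowest for miR-664-3p and miR-339-5p and the highest for miR-1943-5p. Of these 3, the library labelled WT TN replicate 2 has 19.2 CPM of miR-1943-5p, well below the mCre MP libraries. It has 2.25 CPM of miR-32-3p, which had no counts in the mCre MP libraries.

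MP was also set beside TN within a genotype, with the TN libraries kept apart. The MP values chose these miRNAs, so this is a description. The WT MP mean of miR-664-3p, 121 ± 1.51 CPM (SD, n = 2), stood beside 40.4 CPM in WT TN replicate 1 and 15.2 in the library labelled WT TN replicate 2. The mCre MP mean, 29.8 ± 10.7, stood beside 73.1 in mCre TN replicate 1 and 122 in the library labelled mCre TN replicate 2. As labelled, MP was thus above TN in WT and below TN in mCre. With the TN replicate 2 labels exchanged, MP and TN would overlap in both genotypes. miR-339-5p had a mean of 80.1 ± 32.7 CPM in WT MP, between the 95.6 of WT TN replicate 1 and the 21.4 of the library labelled WT TN replicate 2. Its mCre MP mean, 12 ± 2.8, lay below all 4 TN values, the others being 105 in mCre TN replicate 1 and 48.5 in the library labelled mCre TN replicate 2. For miR-1943-5p all 4 TN values lay between 9.91 and 19.2 CPM, around the WT MP mean of 13.7 ± 0.108 and below the mCre MP mean of 78.8 ± 50.3, so this order does not rest on the TN labels. In bulk sorted cells, fewer cells that carry a miRNA and less of it per cell cannot be told apart.

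The opposite arms did not follow as a group. miR-664-5p was higher in mCre MP, at 102 and 72.5 CPM against 19.5 and 31.6 in WT MP, while its partner miR-664-3p was lower there. miR-339-3p overlapped between the genotypes, at 23.3 and 13.6 CPM in mCre MP and 19.2 and 20.4 in WT MP. miR-32-5p was at 35.0 and 29.6 CPM in mCre MP and 43.5 and 55.6 in WT MP, lower in mCre without overlap, a difference of -0.62 ± 0.64 on the log2 scale (SE). miR-1943-3p had 5 counts in WT MP replicate 2 and 0 in every other library, and it did not pass the filter on low counts.

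In TN the 3 tested opposite arms also gave no call. miR-664-5p was at 9.64 and 20.4 CPM in WT and mCre replicate 1 and at 70.4 and 18.7 CPM in the libraries labelled WT and mCre replicate 2, so its replicates went opposite ways (ratios of 2.12 and 0.266). miR-32-5p did likewise with ratios of 0.639 and 3.44, and miR-339-3p had ratios of 0.803 and 1.04. Their differences on the log2 scale were -1.24 ± 1.10, 0.27 ± 0.84 and -0.32 ± 0.74 (SE; edgeR adjusted p = 0.986 for each).

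The share of an arm among the counts of its own hairpin needs no scaling between libraries. On the miR-664 hairpin, the 3p arm held 86.1% (exact 95% binomial interval 82.8% to 88.9%) and 79.5% (75.9% to 82.7%) of the counts in the WT MP libraries, but 17.9% (13.2% to 23.4%) and 34% (28.5% to 39.9%) in the mCre MP libraries. In TN replicate 1 it held 80.7% in WT and 78.2% in mCre. In replicate 2 it held 17.8% (12% to 24.8%) in the library labelled WT and 86.7% (83.0% to 89.8%) in the library labelled mCre. The arm in the majority was thus 3p in 5 libraries and 5p in 3, the mCre MP pair and the library labelled WT TN replicate 2.

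On the miR-339 hairpin the 5p arm held 84.3% and 73.6% in WT MP, and 30.2% (19.2% to 43.0%) and 50.7% (38.6% to 62.8%) in mCre MP. In TN it held 74.5% and 50.0% (38.3% to 61.7%) in the libraries labelled WT and 80.0% and 68.6% in those labelled mCre. On the miR-32 hairpin the 3p arm was the minor one throughout, with 11.5% and 3.77% in WT MP, at most 8.70% in TN, and 0 of 66 and 0 of 76 counts in mCre MP, which leave room for 5.44% and 4.74% by the exact interval. Arm shares that did not overlap between mCre and WT were frequent in MP, in 57 of the 88 hairpins with both arms tested (64.8%), against 14 of 88 (15.9%) in TN. A change of the majority arm between the WT MP pair and the mCre MP pair was seen in 7 of the 88 (7.95%). These were miR-664, miR-142a, miR-195a, miR-29c, miR-30b, miR-342 and miR-423, named after their values were seen. In all of them but miR-29c, the library labelled WT TN replicate 2 had the majority arm of the mCre MP pair. miR-29c had no counts in that library. The other TN libraries had the majority arm of the WT MP pair. The part of library composition in these changes was not tested.

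**Figure D4:**
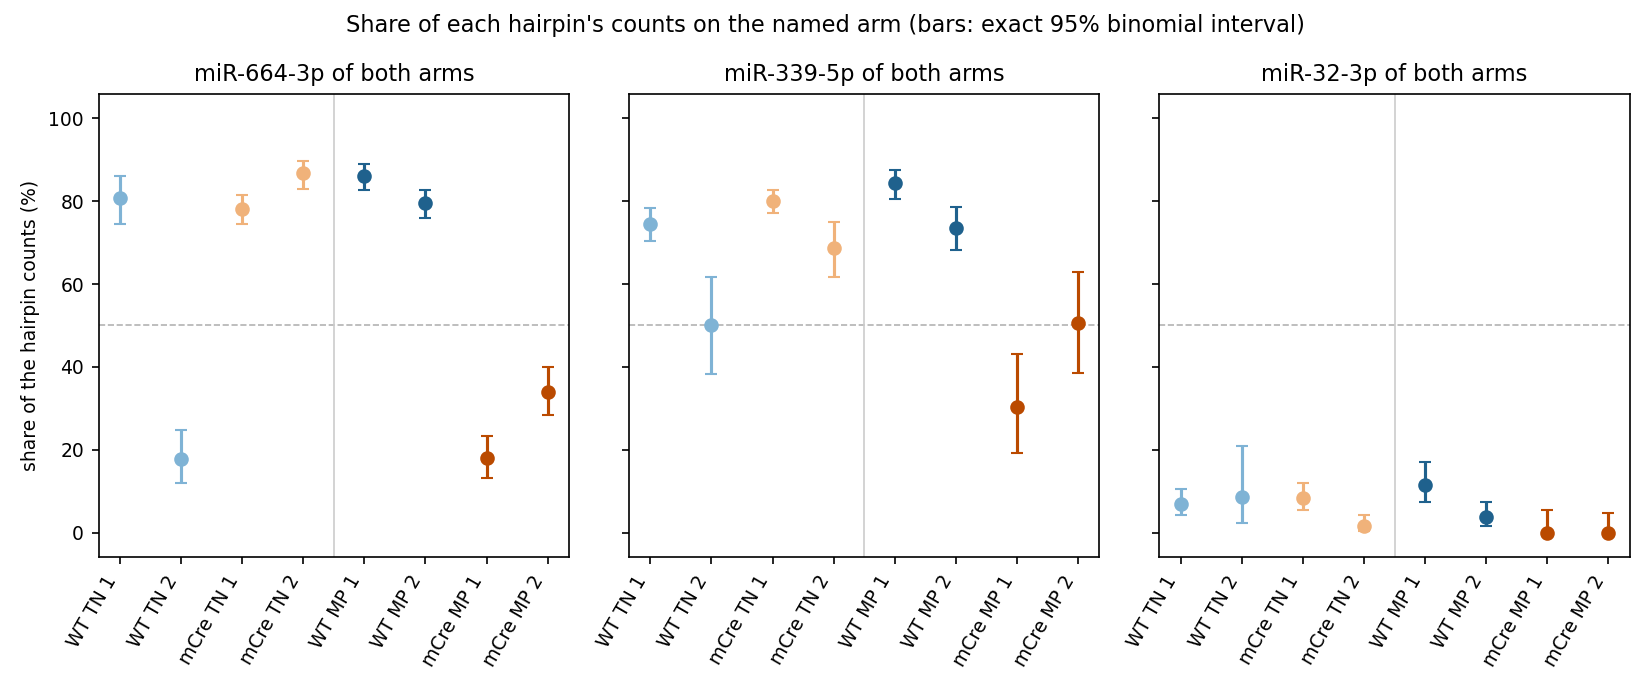
Share of the hairpin's counts on miR-664-3p, miR-339-5p and miR-32-3p (vertical axis, percent of the counts of both arms) in each library, with exact 95% binomial intervals and a dashed line at 50%. miR-664-3p is at 17.8% to 34% in the mCre MP libraries and the library labelled WT TN replicate 2, and at 78.2% to 86.7% in the other 5.

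miR-32-5p, the major arm of its hairpin, shares its seed with miR-25-3p, miR-92a-3p, miR-92b-3p and miR-363-3p, which passed the filter, and with miR-367-3p, which had no counts. miR-92a belongs to the miR-17-92 cluster, which supports lymphocyte growth and survival, and miR-25 and miR-363 to its paralog clusters. The sequences show the common seed in capitals and differ after it.
miR-32-5p: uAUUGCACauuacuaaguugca
miR-25-3p: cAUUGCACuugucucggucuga
miR-92a-3p: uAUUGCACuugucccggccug
miR-92b-3p: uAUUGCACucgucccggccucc
miR-363-3p: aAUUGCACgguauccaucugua
In MP, 3 of these 4 relatives lacked overlap between the genotypes, against 64.7% of all tested miRNAs, so nothing is read from that count. miR-363-3p averaged 305 ± 42.7 CPM in WT MP and 153 ± 12.8 in mCre MP, and miR-25-3p 16300 ± 2640 and 12000 ± 3290, both lower in mCre without overlap. miR-92a-3p averaged 91700 ± 14300 and 88100 ± 5410 CPM with overlap, and miR-92b-3p 65.3 ± 21.7 and 123 ± 8.41, higher without overlap (SD, n = 2 each). In TN none of the 4 passed (edgeR adjusted p = 0.986 for each).

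MP was set against TN over both genotypes for the opposite arms and the seed relatives, which the choice had not used. None of the 3 opposite arms passed, with log2 differences of 0.76 ± 0.59 for miR-664-5p, -0.42 ± 0.41 for miR-339-3p and -0.47 ± 0.45 for miR-32-5p (SE; edgeR adjusted p from 0.572 to 0.6572). Among the 4 seed relatives miR-92b-3p had the largest difference, 1.01 ± 0.39 (SE; edgeR adjusted p = 0.2625), and none passed. edgeR called 12 of 382 miRNAs in this comparison (3.14%). That count was 0 when any one of the 4 MP libraries was left out, 7 without mCre TN replicate 1, and 52 when both TN replicate 2 libraries were left out. Leaving out only the replicate 2 library labelled mCre TN gave 2, and only the one labelled WT TN gave 42.

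Other miRNAs with a similar course over the 8 libraries were sought by Pearson's r of log2 CPM, given as a description over libraries that share their depth and composition. miR-664-3p was most like miR-221-3p (r = 0.975), which is induced on lymphocyte activation, miR-363-3p (0.955) and miR-296-5p (0.945). miR-221-3p averaged 348 ± 31.5 CPM in WT MP and 101 ± 30.7 in mCre MP (SD, n = 2 each). It was at 157 and 181 CPM in WT and mCre TN replicate 1, and at 64.8 and 247 in the libraries labelled WT and mCre TN replicate 2. miR-339-5p was most like miR-17-5p (0.930) of the miR-17-92 cluster, miR-30b-5p (0.929) and miR-24-3p (0.925). miR-32-3p was most like miR-339-5p (0.918), miR-378a-5p (0.888) and miR-297a-3p (0.850), a likeness that low counts limit. miR-1943-5p was most like miR-7b-5p (0.949), miR-7658-5p (0.931) and miR-320-3p (0.916). miR-320-3p averaged 1730 ± 474 CPM in mCre MP against 604 ± 87.9 in WT MP, while miR-7b-5p moved less, at 39.5 ± 4.07 against 28.1 ± 1.90 CPM.

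miRNAs of other cell types also differed between the MP groups. Of the 382 tested miRNAs, 37.4% were lower and 27.2% higher in mCre MP without overlap. Nothing is therefore read from the number of members without overlap in each list. The 2 myeloid strands, miR-223-3p and miR-223-5p, summed to 11.4 and 12.2 CPM in WT MP and 1.59 and 3.51 in mCre MP. The list of 5 erythroid miRNAs summed to 140 to 159 CPM in WT MP and 214 to 309 in mCre MP, but its members went opposite ways. miR-486a-5p (63.8 and 76.3 CPM in WT, 155 and 107 in mCre) and miR-486b-5p (67.5 and 79.0, 153 and 108) were higher in mCre without overlap, while miR-451a was lower without overlap (8.92 and 2.73 in WT, 1.59 and 0 in mCre), with miR-144-3p at 0 counts in both groups and miR-144-5p at 0 in mCre MP. The 6 endothelial and stromal miRNAs summed to 69.5 to 99.4 and 38.7 to 49.1 CPM, 2 of them lower in mCre without overlap and 4 overlapping, with miR-214-3p at 0 in both groups and miR-145a-5p at 0 in WT MP. The 6 epithelial miRNAs summed to 2340 to 2730 CPM in WT MP and 1690 to 2230 in mCre MP, each of them with counts in both groups and 4 of them lower without overlap. The 6 miRNAs of liver, muscle and nerve summed to 15 to 17.6 CPM in WT MP and 24.5 to 44.0 in mCre MP, miR-122-5p alone being higher without overlap, with miR-124-3p at 0 in both, miR-206-3p at 0 in WT MP and miR-133a-3p at 0 in mCre MP. Their part in the differences of the 4 miRNAs was not tested.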

How the data were processed

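Per the labels' protocols, RNA from sorted splenic CD8+ T cells was made into ligation-based small RNA libraries. The authors deposited expected counts for 2128 rows, each a mature miRNA. The build was mm10 per the submitters' processing notes, and for the aligner, counter and annotation the sources used here give no name. The rows of each of 1978 names were summed and rounded. Groups and replicate numbers came from sample titles. filterByExpr (edgeR 4.0.16, minimum count 10, minimum total 15) left 382 miRNAs. CPM used TMM-scaled totals, and log2 CPM a prior count of 2.

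mCre against WT in TN was tested on the 4 TN libraries alone, so that no spread from the MP libraries entered. mCre against WT in MP, and MP against TN, came from 1 fit of 4 groups. The test was edgeR's robust quasi-likelihood F test in R 4.3.3 with Benjamini-Hochberg adjustment over the 382 miRNAs at 0.05. SE was the absolute log2 fold change over the square root of F. DESeq2 1.42.0, other scalings, no filter, left-out libraries, a replicate block and removal of a GC trend were alternatives. Scripts were tested on simulated data, in 5 draws with 200 changed miRNAs.

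The miRNAs named are the 4 chosen ones, their opposite arms, tested miRNAs of the same seeds, the 3 with the highest Pearson's r to each of the 4, and those of the miR-29 family and the marker lists. let-7i-3p, let-7c-5p and the hairpins with a change of majority arm were named after their values were seen. The 4 and all lists were chosen with earlier results of these data known. Of 382 tested miRNAs, 308 (80.6%) matched a RefSeq sequence by name.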

Additional observations from a re-analysis of the deposited data

Results flagged for a closer look

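As labelled, miR-664-3p had both mCre libraries on opposite sides of both WT libraries in the 2 subsets: above them in TN, by 1.66 on the log2 scale, and below them in MP, by -2.02. The difference between the subsets was not tested for this miRNA, since its MP values led to its choice. The absence of overlap in TN rests on the replicate 2 labels, whose miR-29 shares ran opposite to the order in the other pairs. With them exchanged, the 8.02-fold difference of replicate 2 would turn round and the TN groups would overlap. In replicate 1 alone the mCre to WT ratio was 1.81.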

How the results depend on the processing

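In MP the direction of each of the 4 miRNAs held under all 17 alternatives. Since the MP values made the choice, this tests nothing and describes only how the sizes moved. The log2 differences ran from -2.29 to -1.52 for miR-664-3p, -3.09 to -2.23 for miR-339-5p and 1.83 to 3.25 for miR-1943-5p. Removing the GC trend gave -1.55 for miR-664-3p. In TN miR-664-3p stayed positive (0.75 to 2.68, edgeR or DESeq2 adjusted p of 0.359 or more). Signs turned in TN for miR-339-5p (from -0.42 to 1.84 over left-out libraries), miR-32-3p (-1.45 to 0.34) and miR-1943-5p (-0.36 to 0.49), the last also with total count scaling (0.0966), without the filter (0.0807), in the 4-group fit (0.052) and in that fit without both TN replicate 2 libraries (0.391). No call in TN was made under any of 12 alternatives. In MP edgeR called 38 with MP libraries alone and 39 with TN replicate 2 left out in both genotypes, an alternative added after the data were seen, and 0 under the other 14; fewer libraries share the spread in these fits, and the cause was not tested. For MP against TN, 12 calls became 26 by DESeq2, 0 to 42 with 1 library left out and 52 without both TN replicate 2 libraries. The replicate block gave 7 calls there and 0 in both genotype comparisons. With the labels as deposited, deviations of same-numbered libraries had correlations from -0.32 to 0.407, so the main fits did not use the numbers as pairs. Ratios by replicate set libraries side by side by their number only. Whether same-numbered libraries share an animal or a batch is not stated. Depth limits miR-32-3p, which had 25 counts at most in a library.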
